A study of Mus musculus with 32 samples.

Results

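Fibroblasts grown from mouse embryos (labelled MEF) were kept in thapsigargin for 1 h or for 16 h, and the cytosolic RNA of 4 libraries per time was compared across all genes. Thapsigargin blocks the SERCA pumps that load calcium into the endoplasmic reticulum (ER), so that the ER store empties and proteins misfold there. The study holds 32 libraries, from cytosolic RNA and from RNA bound to more than 4 ribosomes, each sequenced in 4 replicates under 4 conditions: control (0 h of thapsigargin), 1 h, 16 h, and 16 h with a PERK inhibitor during the last 4 h. The 8 libraries compared here are the cytosolic ones titled Tg1 and Tg16, chosen by their labels alone, which set an acute against a chronic phase of stress. The 4 cytosolic control libraries serve as a reference for level, and the polysome libraries of the same 2 times serve as another readout. All cells came from MEF cultures in serum and received no other agent in these groups. The sources used here give neither the genotype nor the dose of thapsigargin, nor whether the MEF are primary or an established line. The labels also do not say that replicates came from separate cultures. The p-values set each change against the spread between libraries of a condition, estimated over the 16 cytosolic libraries, and this spread may be technical.

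ER stress is read by PERK, IRE1 and ATF6, sensors in the ER membrane. PERK phosphorylates the translation factor eIF2, which slows protein synthesis and favours translation of ATF4, whose targets feed amino acid supply and, with CHOP, later stages of the response. IRE1 splices the mRNA of XBP1 and degrades some ER-bound mRNAs, and ATF6 is cut in the Golgi to release a transcription factor, and the targets of both enlarge the folding and disposal capacity of the ER. Calcium that leaves the store also reaches the cytosol, where calcium and kinase signalling induce immediate early genes within minutes and for a short time.

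The 4 libraries of 1 h held between 19317276 and 34758148 counts, the 4 of 16 h between 29465980 and 34966246, and the 4 of control between 28280030 and 31979188. Spearman correlations of log2 levels over genes were 0.990 to 0.999 within a time and 0.903 to 0.924 between times. The first principal component carried 89.8% of the variance and separated the times. Replicate 1 of 16 h stood apart on the second component, which carried 4.37%. The cells expressed all 11 fibroblast markers listed, at a summed level of 20078 to 24923 CPM (counts relative to the library total, TMM-scaled) at 1 h and 4504 to 5275 CPM at 16 h. In control this sum was 9223 to 12774 CPM, under that of 1 h and above that of 16 h. The 8 macrophage markers summed to 3.81 to 4.71 CPM at 1 h and 1.89 to 2.58 CPM at 16 h, with 2 of them at 0 in all 8 libraries. The summed markers of each of endothelial, epithelial, muscle, neuronal, fat and red cells reached at most 1.63 CPM in the 8 libraries. Levels are relative to the other mRNAs of a library, and in such bulk samples fewer cells of a type and less RNA per cell cannot be told apart. Of 10 RNAs known to stay in the nucleus, 1 was in the table, Snhg11, which fell 4.50-fold, and mitochondrially encoded mRNAs were not analysed here.

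Most of the transcriptome differed between 16 h and 1 h of thapsigargin. The study holds no separate control for each time, so an effect of time in culture cannot be told apart from one of thapsigargin. Of 12366 genes tested, 9316 (75.3%) were called at an adjusted p under 0.05 in the quasi-likelihood test of edgeR, with p adjusted by Benjamini-Hochberg, 4658 of them higher at 16 h (37.7%) and 4658 lower (37.7%). The changes were not symmetric in size: 910 genes (7.36%) were called and at least 2-fold higher at 16 h, and 2089 (16.9%) were called and at least 2-fold lower. In 4327 genes all 4 libraries of 16 h lay above all 4 of 1 h, and in 4374 they lay below. Without replicate 1 of 16 h, 4613 genes were called higher and 4617 lower. The median log2 change over all genes tested was 0.0050. The lists of genes below are read against these shares, since a list with 37.7% of its members higher and 37.7% lower looks like any other set of genes. Where a gene is given as going from a level at 1 h to a level at 16 h, these are mean ± SD of the 4 libraries of each time.

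**Figure D1:**
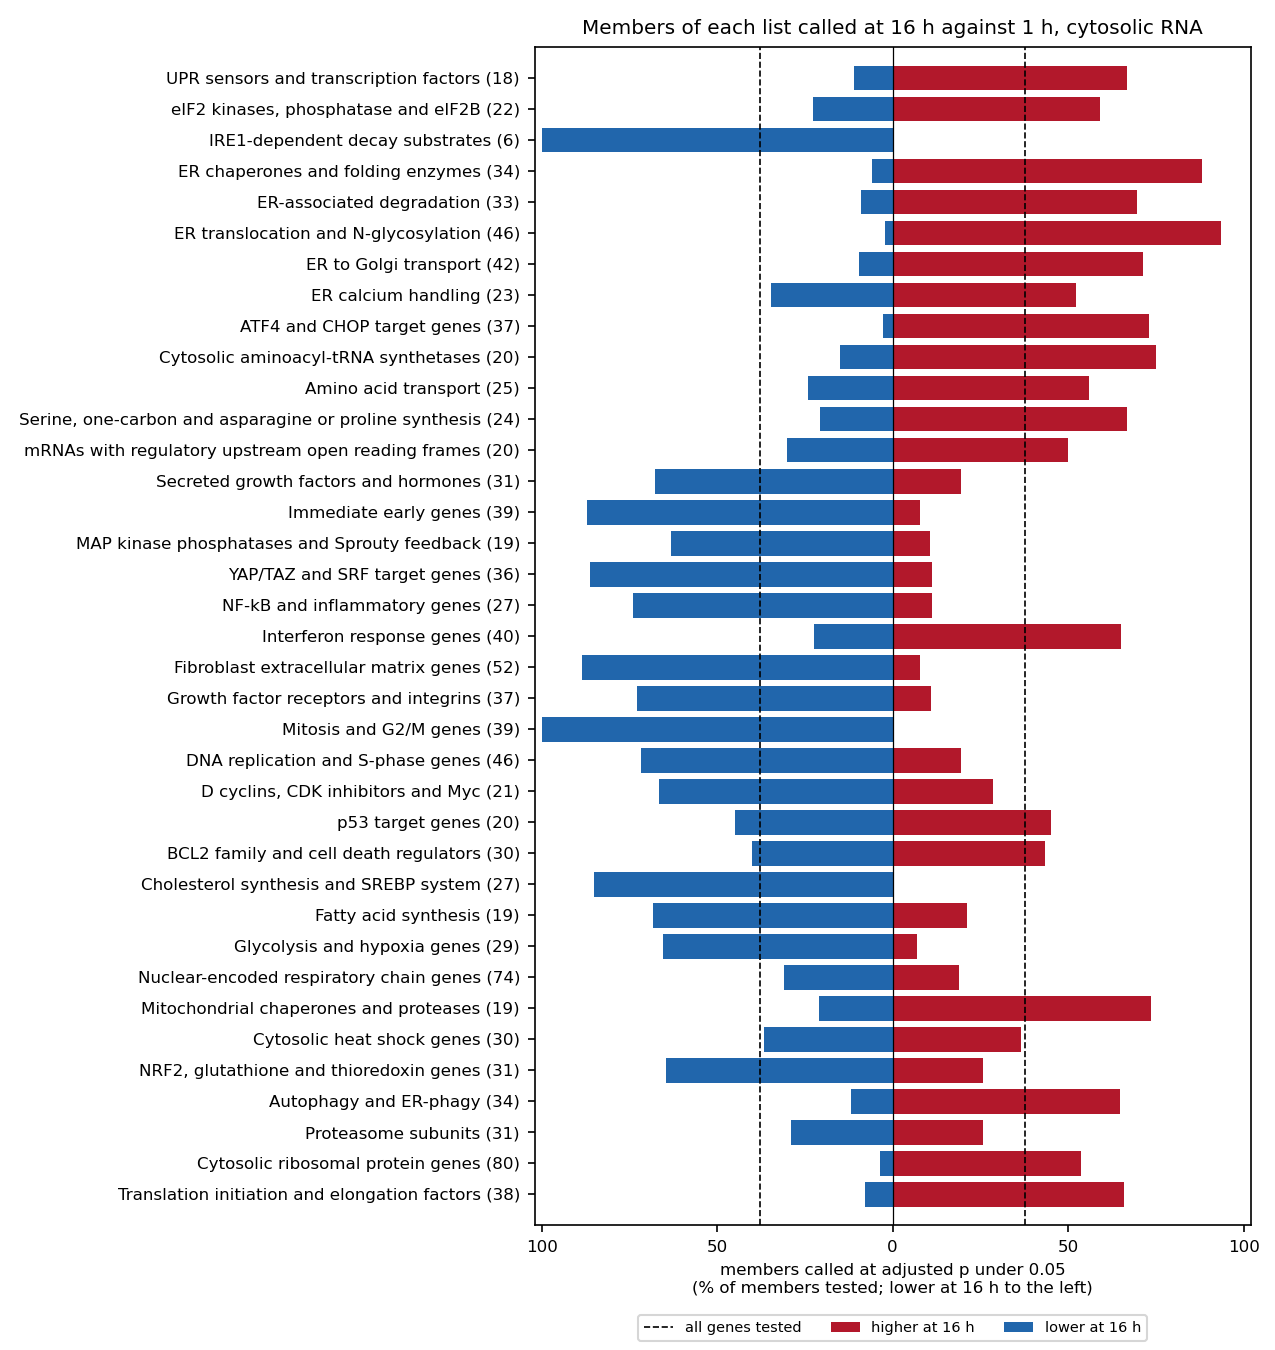
Share of the members of each gene list that were called higher (red, to the right) or lower (blue, to the left) at 16 h against 1 h in cytosolic RNA, in % of the members tested (their number in brackets), with the share over all genes tested as dashed lines. ER lists and ATF4 and CHOP targets lie mostly to the right, whereas mitosis, matrix, immediate early and sterol genes lie mostly to the left.

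The libraries differed with the GC content of transcripts. The deviation of a library from its group mean went with transcript GC over genes, with Spearman's rho from -0.732 (replicate 1 of 16 h) to 0.639 (replicate 3 of 16 h) in the 8 libraries, and with a value near 0 for replicate 4 of 16 h alone (0.0554). The median log2 change was 0.21 in the 2839 genes at or under 45% GC and -0.31 in the 3026 genes over 55%. After each library's GC trend was removed (an alternative added after seeing the data), these medians were 0.060 and 0.039, 5411 genes were called higher and 4751 lower, and 1.23% of the calls had the other sign. Each trend was taken against the mean of all 16 cytosolic libraries. A GC-linked difference between the times was thus removed whatever its source, and the even medians follow from that. With only the GC slope within each condition as a covariate, 5234 genes were called higher and 5274 lower, with 0 changed in sign. List counts with the GC trend removed are given where they differ by 3 or more members from those without it.

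The sensors and transcription factors of the unfolded protein response rose between 1 h and 16 h. Of the 18 genes listed, 12 were called higher, 2 lower and 4 neither (37.7% in each direction over all genes), with a median log2 change of 0.47; with the GC trend removed 15 were higher. Atf6, the sensor cut in the Golgi, was at 105.6, 111.6, 105 and 110.2 CPM at 1 h and 432, 374, 372 and 404 CPM at 16 h. It rose 3.66-fold (log2 change 1.87 ± 0.061 SE, edgeR adjusted p = 2.9e-14), with the groups apart. Ern1, which encodes IRE1, rose 2.19-fold, from 41.7 ± 2.48 to 91.2 ± 5.99 CPM, and its substrate Xbp1 rose 2.01-fold, from 171 ± 7.33 to 344 ± 14.5 CPM; the counts do not separate the spliced from the unspliced form of Xbp1. Eif2ak3, which encodes PERK, rose 1.80-fold, from 56.9 ± 2.35 to 102.7 ± 1.87 CPM. All 3 sensor mRNAs were at 1 h near or under their control means of 126, 47.8 and 66.7 CPM for Atf6, Ern1 and Eif2ak3. Creb3l1, an ER-bound factor of the same cleavage family that acts on matrix genes, went the other way and fell 3.17-fold, from 147 ± 13.7 to 46.5 ± 7.81 CPM.

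Downstream of PERK the factors differed in how far they had gone by 1 h. Atf4 was at 761, 750.0, 757 and 763 CPM at 1 h and 971, 976, 975 and 988 CPM at 16 h, against a control mean of 534 CPM, and rose 1.29-fold between the times (log2 change 0.37 ± 0.032 SE, edgeR adjusted p = 1.8e-08). Ddit3, which encodes the pro-death factor CHOP, was at 119.4, 100.9, 110.5 and 104.05 CPM at 1 h and 451, 552, 555 and 545 CPM at 16 h. Its 1 h libraries were already far above the control mean of 16.2 CPM, and the 16 h libraries lay 4.84-fold higher again (edgeR adjusted p = 1.6e-12), with replicate 1 of 16 h below the others. Atf3, a partner of ATF4 and CHOP, rose 4.32-fold, from 80.8 ± 1.48 to 349 ± 10.4 CPM (SD, n = 4). Atf5, a relative of Atf4 under similar translational control, rose 1.48-fold. Trib3, a CHOP target that restrains ATF4, was at 152 ± 14.6 and 191 ± 29.1 CPM (SD, n = 4), which did not pass the test (edgeR adjusted p = 0.052), although with the GC trend removed its log2 change was 0.72 (edgeR adjusted p = 2e-13).

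Genes of the machinery that sets eIF2 phosphorylation went in both directions, among phosphatase subunits as among kinases. Ppp1r15a, the stress-induced subunit GADD34 that brings a phosphatase to eIF2, was at 140.3, 124.04, 126.5 and 111 CPM at 1 h and 796, 848, 885 and 889.6 CPM at 16 h. It rose 6.80-fold (log2 change 2.77 ± 0.074 SE, edgeR adjusted p = 2.1e-15), and no library of 16 h came near those of 1 h. Ppp1r15b, the constitutive counterpart, fell 1.26-fold, at 272, 293, 274 and 283 CPM at 1 h and 255, 207, 208 and 221 CPM at 16 h, and the catalytic subunit gene Ppp1ca fell 1.71-fold. Dnajc3, whose product p58IPK binds unfolded proteins in the ER and has been described as an inhibitor of PERK, rose 5.86-fold. Among the other eIF2 kinases, Eif2ak1 (HRI) and Eif2ak2 (PKR) rose 1.35-fold and 1.34-fold, while Eif2ak4 (GCN2) fell 1.33-fold and its activator Gcn1l1 fell 2.08-fold. Genes of eIF2 and of its exchange factor eIF2B included Eif2s1, 1.51-fold higher, and Eif2b3, 1.996-fold higher. In the whole list of 22 genes 13 were called higher and 5 lower, with a median log2 change of 0.34.

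**Figure D2:**
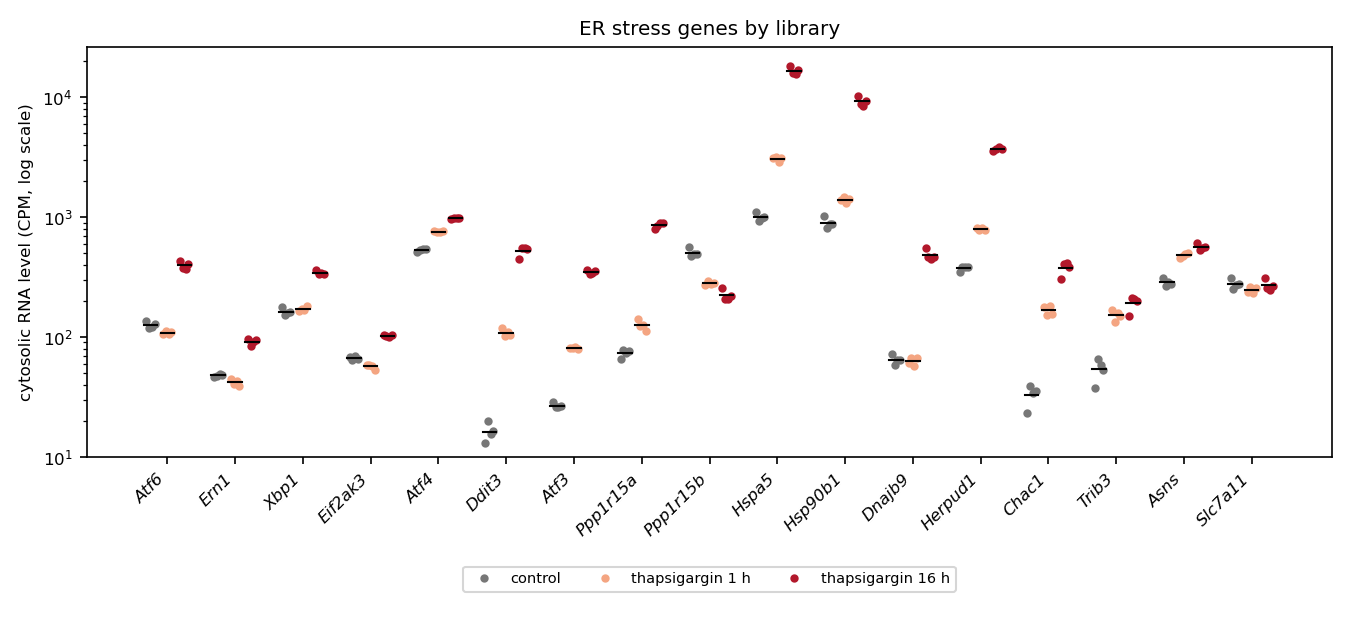
Cytosolic level (CPM, log scale) of 17 ER stress genes in each of the 4 libraries of control (grey), 1 h (light) and 16 h (red), with the group mean as a bar. Hspa5 went from 3065 CPM at 1 h to 16716 CPM at 16 h, whereas Atf4, Asns and Slc7a11 differed less between the times and Ppp1r15b fell.

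The ER folding machinery rose broadly. Of 34 chaperones and folding enzymes, 30 were called higher at 16 h, 2 lower and 2 neither, and 20 were at least 2-fold higher (7.36% of all genes), with a median log2 change of 1.28. Hspa5, the ER Hsp70 BiP that holds the sensors inactive in the absence of stress, was at 3090.3, 3150.1, 2908 and 3112 CPM at 1 h and 18288, 16080.0, 15763 and 16732 CPM at 16 h. This is a rise of 5.45-fold (log2 change 2.45 ± 0.061 SE, edgeR adjusted p = 8.7e-16), on top of a 1 h level above the control mean of 1002 CPM. Hsp90b1, the ER Hsp90, was at 1382, 1484, 1303 and 1409 CPM at 1 h and 10330.0, 8782, 8460.2 and 9359.5 CPM at 16 h and rose 6.62-fold.

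Their promoters are shown because they hold the ER stress response element, the site to which ATF6 and XBP1 bind together with NF-Y. It was searched on both strands as CCAAT, then 9 bases of any kind, then CCACG, in the 300 bases from 250 before to 50 after each RefSeq start (GRCm38.p6). Of all 32851 promoters listed, 0.119% hold it, and of the 9830 genes tested that have a promoter there 0.183% do, against 8 of the 30 chaperones and folding enzymes with a promoter in the table (26.7%): Calr, Canx, Creld2, Dnajc3, Ero1lb, Hsp90b1, Hspa5 and Pdia6. Later shares of tested genes are also over these 9830. Shares of all promoters count single windows, whereas those of genes count a gene once if any of its windows matched. Among genes with a promoter, 12 of 713 at least 2-fold higher at 16 h hold the element (1.68%). Of those at least 2-fold lower, 1 of 1544 does (0.0648%). The windows below are written 5′ to 3′ on the strand of the gene, with each match in capitals (a match that begins CGTGG is on the other strand), and lie at chr2:34772013-34772055, plus strand (Hspa5), chr10:86705521-86705668, minus strand (Hsp90b1), chr8:84847063-84847105, minus strand (Calr), chr12:17266479-17266521, plus strand (Pdia6) and chr15:88819508-88819550, plus strand (Creld2). The match of Hspa5 begins 65 bases before the start.
Hspa5: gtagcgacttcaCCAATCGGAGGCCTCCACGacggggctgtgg
Hsp90b1: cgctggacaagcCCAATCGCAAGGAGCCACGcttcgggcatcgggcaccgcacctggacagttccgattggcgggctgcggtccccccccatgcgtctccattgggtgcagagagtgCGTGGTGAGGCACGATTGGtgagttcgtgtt
Calr: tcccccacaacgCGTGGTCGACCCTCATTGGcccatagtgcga
Pdia6: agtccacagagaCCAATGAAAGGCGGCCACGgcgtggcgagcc
Creld2: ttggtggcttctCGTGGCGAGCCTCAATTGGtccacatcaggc
All 5 genes rose. Calr, the calcium-binding lectin chaperone calreticulin, was at 1913, 2000.4, 1717 and 1756 CPM at 1 h and 9764, 9283, 8976 and 9519 CPM at 16 h and rose 5.08-fold. Pdia6, a disulfide isomerase that acts on the IRE1 and PERK sensors, went from 601 ± 9.70 to 2883 ± 87.9 CPM (SD, n = 4). Creld2, a secreted ER stress protein, rose 7.06-fold, from 47.7 ± 1.56 to 337 ± 17.1 CPM. The 1 h means of Calr, Pdia6 and Creld2 were close to or under their control means of 1760.3, 606 and 57.9 CPM.

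Cochaperones and redox enzymes followed. Sdf2l1, a partner of BiP and its J proteins, had the highest change of the list, at 31.6, 27.7, 29.2 and 30.1 CPM at 1 h and 284, 334, 325 and 308 CPM at 16 h, a rise of 10.6-fold. Manf, a calcium-dependent BiP client that is secreted when the store empties, rose 9.14-fold, from 163 ± 5.44 to 1492 ± 40.0 CPM (SD, n = 4). The J protein gene Dnajb9, which encodes ERdj4, was at 60.2, 66.7, 57.4 and 66.8 CPM at 1 h and 547, 461, 448 and 467 CPM at 16 h and rose 7.65-fold, and Dnajb11, which encodes ERdj3, rose 2.73-fold. Hyou1, a nucleotide exchange factor for BiP, rose 5.76-fold, and Ero1l, the oxidase that recharges disulfide isomerases, rose 3.40-fold. The disulfide isomerases themselves rose by unequal amounts, Pdia4 4.37-fold, Pdia3 3.34-fold and P4hb 1.502-fold. Canx, the membrane lectin calnexin, rose 2.22-fold. Cnpy4, a cofactor for surface receptors, was the member that fell most, 2.11-fold, from 32.4 ± 1.67 to 15.4 ± 0.5499 CPM.

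Disposal of misfolded ER proteins rose less evenly. Of 33 genes of ER-associated degradation 23 were called higher and 3 lower at 16 h, with a median log2 change of 0.42 (26 higher and 4 lower with the GC trend removed). Herpud1, a membrane protein of the degradation complex that is short-lived, was at 815, 776, 810.4 and 777 CPM at 1 h and 3544, 3737, 3824 and 3674 CPM at 16 h, against a control mean of 373 CPM. It rose 4.65-fold (log2 change 2.22 ± 0.043 SE, edgeR adjusted p = 2.7e-17). Its promoter holds the related element ERSE-II (ATTGG, then 1 base of any kind, then CCACG), found in 0.0365% of all promoters and 0.0814% of the tested genes, which is shown in capitals at chr8:94386365-94386399, plus strand.
Herpud1: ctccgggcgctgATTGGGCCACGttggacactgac
Vimp, which recruits the ATPase p97 to the ER membrane, rose 5.24-fold, from 59.6 ± 0.874 to 312 ± 11.2 CPM. The mannosidase-like lectin gene Edem1 rose 3.17-fold, and the core of the ubiquitin ligase, Sel1l and Syvn1 (HRD1), rose 3.10-fold and 2.41-fold. Yod1, a deubiquitinase that assists p97, fell 1.74-fold.

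Entry into the ER and sugar attachment had the highest share of risen members of all the lists. Of 46 genes of translocation and N-glycosylation, 43 were called higher, 1 lower and 2 neither, with a median log2 change of 0.85. The channel genes Sec61a1 and Sec61b rose 2.25-fold and 2.12-fold, from 779 ± 38.3 to 1753 ± 124.6 CPM and 44.0 ± 6.32 to 93.5 ± 20.0 CPM. Sec11c, a subunit of the signal peptidase, was at 13.9, 12.9, 14.0 and 13.3 CPM at 1 h and 57.2, 56.2, 51.7 and 55.2 CPM at 16 h and rose 4.08-fold. Alg2, a mannosyltransferase that builds the sugar donor, rose 3.54-fold, and Gfpt1, which starts the hexosamine pathway that feeds it and is a target of spliced XBP1, rose 1.78-fold. The oxidase subunits of the oligosaccharyltransferase went in opposite directions: Magt1 was at 141.6, 159, 137.1 and 158 CPM at 1 h and 563, 472, 470.5 and 500.0 CPM at 16 h and rose 3.36-fold, while Tusc3 was at 36.0, 40.2, 36.1 and 35.7 CPM at 1 h and 22.997, 22.0, 22.7 and 22.4 CPM at 16 h and fell 1.64-fold. Dad1, a core subunit of the same complex, rose 1.77-fold, and its means of 68.2 CPM at 1 h and 120.8 CPM at 16 h both lay under the control mean of 165 CPM.

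Vesicle transport from ER to Golgi rose as well, with 30 of 42 genes called higher and 4 lower and a median log2 change of 0.53 (34 higher with the GC trend removed). Sec23b, an inner coat subunit of COPII vesicles, rose 2.98-fold, from 52.5 ± 2.19 to 157 ± 8.55 CPM (SD, n = 4). Bet1, a SNARE that helps them fuse, rose 3.28-fold, and Mcfd2, a cargo receptor subunit, rose 2.97-fold. The scaffold gene Sec16a, which marks exit sites, fell 1.20-fold. Of the 36 members with a promoter, 6 (16.7%) hold TGACGTGG, the core of the UPR element to which XBP1 and ATF6 bind, against 0.676% of all promoters and 1.02% of the tested genes. The core was in 6 of 713 genes at least 2-fold higher at 16 h (0.842%) and in 9 of 1544 at least 2-fold lower (0.583%). The 6 members are Copb1, Copb2, Kdelr3, Sec23a, Sec24d and Stx5a, with log2 changes from -0.065 (Copb2, not called) to 0.76 (Stx5a). Sec23b, Bet1 and Mcfd2 are not among them.

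The calcium machinery, the target of the drug, was divided. Of 23 genes tested 12 were called higher and 8 lower, with a median log2 change of 0.18. Atp2a2, the SERCA pump of most cells, was at 598, 632, 645 and 656 CPM at 1 h and 1248, 1078, 1131 and 1159 CPM at 16 h and rose 1.82-fold (log2 change 0.87 ± 0.055 SE, edgeR adjusted p = 2.1e-10). Atp2a3, a pump otherwise typical of blood and epithelial cells, was at 1.17, 1.12, 1.19 and 1.03 CPM at 1 h and 26.4, 31.1, 32.7 and 32.5 CPM at 16 h. It was at 30.7 ± 2.92 CPM (SD, n = 4) by then, and the groups lay far apart. Tmco1, an ER channel that releases excess calcium, rose 1.94-fold. In contrast, the release channel gene Itpr3 fell 3.69-fold, and the store sensors that open calcium entry at the plasma membrane, Stim1 and Stim2, fell 1.82-fold and 1.62-fold.

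All 6 genes listed as substrates of IRE1-dependent mRNA decay were lower at 16 h, with a median log2 change of -1.73, and this small list overlaps with secreted and surface genes. Bloc1s1, the usual reporter of this decay, was at 27.1, 25.4, 25.2 and 25.5 CPM at 1 h and 7.70, 6.49, 7.37 and 7.19 CPM at 16 h and fell 3.59-fold (log2 change -1.84 ± 0.090 SE, edgeR adjusted p = 6.3e-12). Scara3, a scavenger receptor, fell 3.08-fold, and Hgsnat, a lysosomal enzyme, fell 2.44-fold. Bloc1s1, Scara3 and Hgsnat were at 1 h already under their control means of 37.5, 89.8 and 100.1 CPM. The other 3, the matrix genes Sparc and Col6a1 and the receptor gene Pdgfrb, fell 1.47-fold, 29.97-fold and 3.92-fold.

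Targets of ATF4 and CHOP rose further between the times, by unequal amounts. Of 37 genes 27 were called higher, 1 lower and 9 neither, with a median log2 change of 0.50 (33 higher with the GC trend removed). Chac1, which degrades glutathione, was at 179, 151, 179.9 and 157 CPM at 1 h and 304, 407, 415 and 386 CPM at 16 h and rose 2.27-fold (log2 change 1.18 ± 0.13 SE, edgeR adjusted p = 4.7e-07). Cth, the enzyme that makes cysteine, rose 4.78-fold, from 60.8 ± 2.22 to 291 ± 14.4 CPM. Ndrg1 rose 4.47-fold, Sqstm1, an autophagy receptor, 2.40-fold, and Sesn2, an inhibitor of mTORC1, 1.71-fold. The hormone genes Fgf21 and Stc2 rose 2.75-fold and 3.06-fold.

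Other genes of the amino acid response differed little between the times. Asns, asparagine synthetase, was at 456, 478, 491 and 505 CPM at 1 h and 604, 536, 547 and 562 CPM at 16 h, against 285 ± 19.6 CPM in control (SD, n = 4), and rose 1.17-fold after 1 h. Slc7a11, the cystine carrier, was at 238, 261, 233 and 256 CPM at 1 h and 311, 258, 246 and 266 CPM at 16 h, and the groups overlapped (edgeR adjusted p = 0.18). Ddit4, an inhibitor of mTORC1, was at 57.4 ± 7.86 and 67.8 ± 13.6 CPM (SD, n = 4), far above the control mean of 11.7 CPM, and did not pass the test between the times (edgeR adjusted p = 0.1), although with the GC trend removed its log2 change was 0.61 (edgeR adjusted p = 8.2e-08). Gdf15, a stress hormone, was low, at 3.25 ± 1.05 and 1.999 ± 1.20 CPM (edgeR adjusted p = 0.14). The serine synthesis gene Phgdh and the one-carbon gene Shmt2 did not pass the test (0.49 and 0.3, edgeR adjusted p), although with the GC trend removed their log2 changes were 0.44 and 0.52 (edgeR adjusted p = 1.9e-09 and 3.9e-09), and Psat1, the member that fell, was 1.37-fold lower.

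The promoters of several of these genes hold the core of the composite C/EBP-ATF site, TGATGCAA on either strand, to which ATF4 and CHOP bind. It occurs in 0.895% of all promoters and 0.753% of the tested genes, in 8 of the 31 ATF4 and CHOP targets with a promoter in the table (25.8%) and in 4 of the 13 cytosolic tRNA synthetases with a promoter in the table (30.8%). Genes at least 2-fold higher hold it in 20 of 713 cases (2.81%), those at least 2-fold lower in 14 of 1544 (0.907%). Windows with the match in capitals (TTGCATCA is the site on the other strand) are shown for genes that rose strongly, weakly or not at all between the times, at chr2:119351037-119351068, plus strand (Chac1), chr7:126625561-126625592, minus strand (Nupr1), chr19:43524688-43524719, minus strand (Got1), chr7:45615610-45615641, minus strand (Fgf21), chr19:27216808-27216839, plus strand (Vldlr) and chr3:50443641-50443691, minus strand (Slc7a11).
Chac1: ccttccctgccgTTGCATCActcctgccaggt
Nupr1: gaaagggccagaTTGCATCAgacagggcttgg
Got1: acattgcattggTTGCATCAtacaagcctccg
Fgf21: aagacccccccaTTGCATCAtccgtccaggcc
Vldlr: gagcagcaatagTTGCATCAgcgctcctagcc
Slc7a11: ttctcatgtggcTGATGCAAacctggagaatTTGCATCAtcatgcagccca
Nupr1, a stress-induced chromatin protein, was at 60.9, 59.0, 57.3 and 57.4 CPM at 1 h and 138.8, 149.8, 159 and 161 CPM at 16 h and rose 2.59-fold. Got1, an aspartate aminotransferase, rose 2.60-fold, from 91.9 ± 0.987 to 238 ± 4.38 CPM. Fgf21 was low at both times, from 7.14 ± 1.56 to 19.6 ± 3.34 CPM, and Vldlr, a lipoprotein receptor, rose 1.24-fold, from 134.4 ± 6.93 to 166 ± 11.98 CPM. Slc7a11, with 2 matches, did not pass the test (edgeR adjusted p = 0.18). The presence of the site in this window therefore went with different changes among these 6 genes. Aars, an alanyl-tRNA synthetase at 958 ± 42.7 and 891 ± 35.9 CPM (SD, n = 4), did not pass the test either (edgeR adjusted p = 0.091).

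Cytosolic aminoacyl-tRNA synthetases, which load tRNAs, mostly rose: 15 of 20 were called higher and 3 lower, with a median log2 change of 0.33. Wars, for tryptophan, was at 55.9, 51.8, 57.2 and 58.6 CPM at 1 h and 198, 223, 233 and 222 CPM at 16 h and rose 3.92-fold. Farsb and Rars, for phenylalanine and arginine, rose 2.16-fold and 1.93-fold. The 3 members that fell were Mars (2.47-fold), Vars (1.75-fold) and Qars (1.42-fold), for methionine, valine and glutamine. Mars was at 217, 202, 213 and 201 CPM at 1 h and 82.95, 79.9, 89.4 and 85.7 CPM at 16 h, so that its 16 h libraries lay under the control mean of 145.2 CPM, whereas Vars stayed above its control mean of 136.4 CPM.

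Amino acid carriers were split, with 14 of 25 called higher, 6 lower and a median log2 change of 0.42. Slc3a2, the heavy chain shared by several exchangers, was at 777, 722, 749 and 724 CPM at 1 h and 2412, 2710.0, 2798 and 2647 CPM at 16 h and rose 3.56-fold (edgeR adjusted p = 8.4e-15). Its partner Slc7a5, the leucine exchanger LAT1, rose 1.41-fold, and the glycine carrier gene Slc6a9 rose 3.26-fold. The glutamate carrier gene Slc1a3 fell 6.46-fold, from 318 ± 9.36 to 49.2 ± 3.79 CPM, and the taurine carrier gene Slc6a6 fell 3.83-fold. In serine, one-carbon, asparagine and proline synthesis 16 of 24 genes were called higher and 5 lower (median 0.26). Aldh1l2, a mitochondrial folate enzyme, rose 3.42-fold, from 323 ± 10.4 to 1102 ± 75.0 CPM, and Mthfd2, which acts beside it, rose 1.29-fold. Among 20 mRNAs with regulatory upstream open reading frames, the class whose translation changes when eIF2 is phosphorylated, 10 were higher and 6 lower (median 0.14).

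Immediate early genes had the lowest median log2 change of all the lists, -3.38. Of 39 tested, 3 were called higher and 34 lower, 32 of them at least 2-fold (16.9% of all genes). Fos, a component of the AP-1 dimer, was at 206, 177, 198 and 186 CPM at 1 h and 0.359, 0.468, 0.737 and 0.429 CPM at 16 h. It fell 385-fold (log2 change -8.59 ± 0.18 SE, edgeR adjusted p = 7.7e-17), to well under the control mean of 24.6 CPM. The zinc finger genes of the Egr family followed. Egr1 was at 3602, 3220.1, 3652 and 3509 CPM at 1 h and 42.1, 47.2, 46.8 and 39.5 CPM at 16 h. Egr2 was at 226, 203, 216 and 209.9 CPM at 1 h and 0.261, 0.281, 0.234 and 0.258 CPM at 16 h. For Egr3 the values were 608, 554, 568 and 569.5 CPM at 1 h and 0.457, 0.468, 0.636 and 0.286 CPM at 16 h. Each of the 3 had groups far apart: Egr1 fell 79.6-fold, Egr2 813-fold and Egr3 1251-fold, and the 16 h libraries held only 33 counts of Egr2 and 58 of Egr3 in all.

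Most other members fell as well. Fosb and Junb, further AP-1 genes, fell 72.9-fold and 31.1-fold, and Jun and Fosl1 fell 12.3-fold and 9.35-fold. Arc, which is translated near synapses in neurons, fell 245-fold, from 139.5 ± 19.5 to 0.565 ± 0.129 CPM, and the orphan receptor gene Nr4a1 fell 95.9-fold, from 482 ± 47.0 to 5.03 ± 1.29 CPM. Myc, a driver of growth, was at 1524, 1266, 1481 and 1412 CPM at 1 h and 278, 378, 357 and 326 CPM at 16 h. It fell 4.25-fold, and its 16 h mean of 335 CPM lay by its control mean of 333 CPM. The 3 members that rose were Btg1, an inhibitor of proliferation (1.66-fold), Arl4d (1.81-fold) and the orphan receptor gene Nr4a2 (1.27-fold). Klf4, at 21.5 and 24.4 CPM, did not pass the test (edgeR adjusted p = 0.061, against a log2 change of 0.37 and adjusted p = 1.1e-05 with the GC trend removed).

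**Figure D3:**
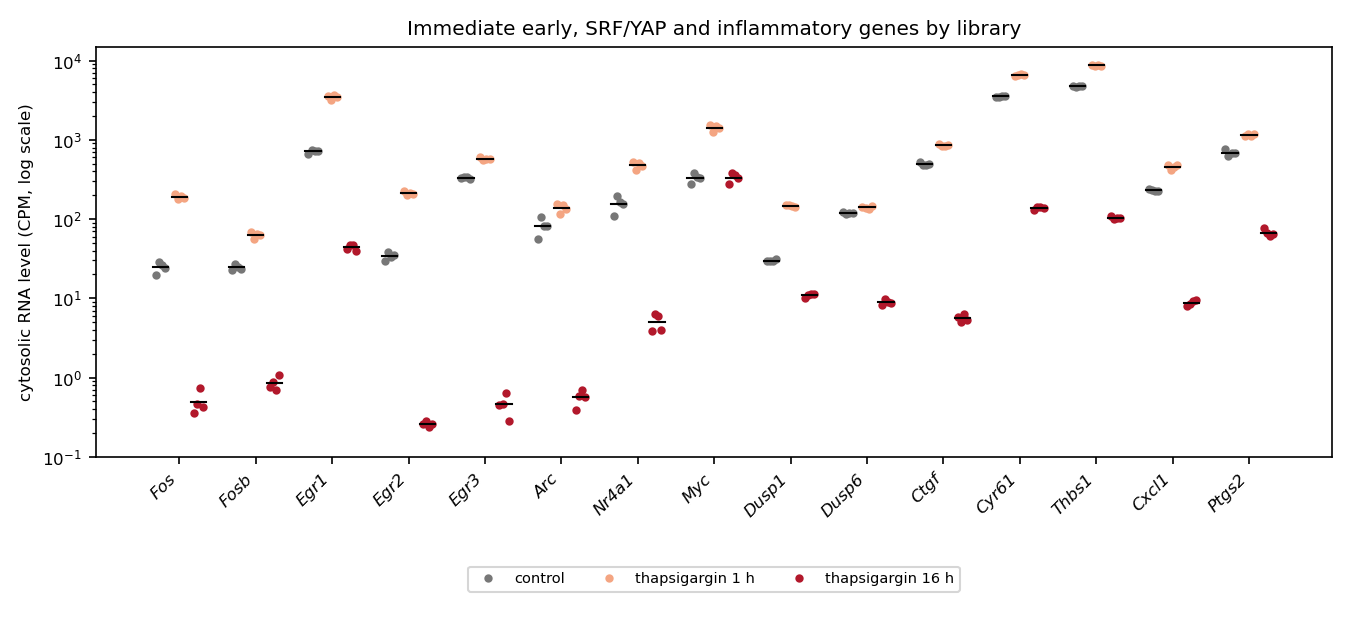
Cytosolic level (CPM, log scale) of 15 immediate early, SRF/YAP and inflammatory genes in each library of control (grey), 1 h (light) and 16 h (red), with the group mean as a bar. All 15 genes are lower at 16 h than at 1 h, and all but Myc lie under their control means, Fos for example at 0.498 CPM against 24.6 CPM.

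The promoters of some of these genes hold the CArG box to which serum response factor (SRF) binds, written as CC, then 6 bases that are each A or T, then GG. It is found in 1.63% of all promoters and 1.64% of the tested genes, in 3 of the 29 immediate early genes with a promoter in the table (10.3%) and in 5 of the 26 genes of the YAP/TAZ and SRF list with a promoter in the table (19.2%). The box is in 18 of 713 genes at least 2-fold higher (2.52%) and in 42 of 1544 at least 2-fold lower (2.72%). Another 4 of the 29 immediate early genes (13.8%) hold TGACGTCA, the cyclic AMP response element (CRE), against 1.79% of all promoters and 3.59% of the tested genes. The CRE is in 2.66% of genes at least 2-fold higher and in 3.04% of those at least 2-fold lower. Of the 4 immediate early genes that hold it, Arl4d rose (log2 change 0.86). Windows with CArG boxes in capitals are shown for Egr2 (chr10:67537482-67537515, plus strand), Srf (chr17:46556203-46556256, minus strand) and Vcl (chr14:20929159-20929192, plus strand), and with the CRE in capitals for Dusp1 (chr17:26508596-26508627, minus strand).
Egr2: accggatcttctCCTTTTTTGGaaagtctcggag
Srf: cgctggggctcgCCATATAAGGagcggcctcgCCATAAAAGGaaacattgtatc
Vcl: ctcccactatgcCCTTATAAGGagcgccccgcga
Dusp1: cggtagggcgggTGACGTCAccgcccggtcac
Srf, which encodes the factor itself, was at 242, 202, 234 and 216 CPM at 1 h and 33.3, 44.5, 44.0 and 38.9 CPM at 16 h and fell 5.56-fold. Vcl, the focal adhesion protein vinculin, fell 7.19-fold, from 773 ± 18.5 to 107.4 ± 4.195 CPM (SD, n = 4). Dusp1, a phosphatase of MAP kinases, was at 149, 151, 148.3 and 141 CPM at 1 h and 10.1, 10.97, 11.2 and 11.5 CPM at 16 h and fell 13.5-fold.

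Negative feedback on MAP kinases fell with the immediate early genes: 2 of 19 genes were higher and 12 lower, with a median log2 change of -0.51. Dusp6 and Dusp5, phosphatases of ERK, fell 15.8-fold and 41.5-fold, from 141 ± 5.13 to 8.91 ± 0.649 CPM and 79.9 ± 3.93 to 1.92 ± 0.267 CPM. Errfi1, an inhibitor of the EGF receptor, was at 2007, 2121, 2088 and 2178 CPM at 1 h and 60.0, 52.97, 56.3 and 56.7 CPM at 16 h and fell 37.1-fold. Spry2 fell 7.43-fold, while Spry3 and Dusp4, both low, rose 1.80-fold and 1.81-fold. The list of YAP/TAZ and SRF targets, which respond to cell shape and tension, also holds factors of these pathways, such as Yap1, Wwtr1, Tead1 and Srf. Of its 36 genes 31 fell and 4 rose (median log2 change -2.26), Yap1 and Wwtr1 among those that rose. Ctgf was at 883, 839, 834 and 857 CPM at 1 h and 5.77, 5.02, 6.33 and 5.35 CPM at 16 h and fell 152-fold (log2 change -7.25 ± 0.072 SE, edgeR adjusted p = 8.7e-21). Cyr61, another matrix-bound signal protein, fell 47.8-fold, from 6592 ± 151 to 138 ± 4.27 CPM (SD, n = 4), and Ankrd1 fell 14.4-fold. The contractile genes Acta2 and Tagln fell 7.25-fold and 7.53-fold. Wwtr1, which encodes TAZ, rose 1.84-fold, while most of the listed targets of this cofactor fell.

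Inflammatory genes under NF-kB fell too, 20 of 27 tested against 3 that rose, with a median log2 change of -1.67. The neutrophil chemokine gene Cxcl1 was at 477, 412, 455 and 484 CPM at 1 h and 7.99, 8.57, 9.34 and 9.45 CPM at 16 h and fell 51.6-fold. Ptgs2, which encodes the prostaglandin enzyme COX-2, fell 17.0-fold, from 1149.9 ± 41.6 to 67.6 ± 6.40 CPM, and the chemokine genes Ccl2 and Ccl7 fell 13.0-fold and 8.21-fold. Genes of inhibitors of the pathway went in both directions: Nfkbia and Tnfaip3 fell 6.88-fold and 26.5-fold, while Nfkbib rose 1.84-fold. Tnfaip2 rose 2.19-fold. Secreted growth factors and hormones were mostly lower: 6 of 31 were higher and 21 lower (median -1.69). Those that fell included Edn1, endothelin (46.2 ± 2.26 to 0.228 ± 0.0687 CPM), the EGF family genes Hbegf (6.52-fold) and Ereg (17.9-fold), and the cytokine gene Lif (16.4-fold). Those that rose included Vegfa (1.36-fold) and the ATF4 targets Fgf21 and Stc2 given above.

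Interferon response genes were mostly higher at 16 h, although few of the members named reached high levels. Of 40 tested 26 were called higher and 9 lower, 17 at least 2-fold higher, with a median log2 change of 0.64. Isg15, a ubiquitin-like modifier, was at 20.5, 20.4, 19.9 and 18.1 CPM at 1 h and 88.1, 99.2, 103.99 and 101.01 CPM at 16 h and rose 4.97-fold (log2 change 2.31 ± 0.093 SE, edgeR adjusted p = 5.4e-13). Usp18, which removes it from proteins, was at 0.802, 0.837, 0.594 and 0.724 CPM at 1 h and 27.3, 21.6, 27.3 and 27.0 CPM at 16 h. Mx2, of a family of antiviral GTPases and annotated by RefSeq in this build as a transcribed pseudogene, went from 1.36 ± 0.253 to 26.2 ± 1.42 CPM, and Irf7, the factor that amplifies the response, from 0.637 ± 0.126 to 4.28 ± 0.95003 CPM (SD, n = 4). Ifit1, which binds viral RNA, rose 1.83-fold. Members that fell included Psmb8, an immunoproteasome subunit (2.47-fold), the GTPase gene Gbp2 (2.35-fold) and Irf1 (2.31-fold), the last of these a factor also induced through NF-kB.

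The interferon element was searched as GAAA, then 2 bases of any kind, then GAAA on either strand. It was found in 3.44% of all promoters, 3.62% of the tested genes and 14 of the 31 interferon response genes with a promoter in the table (45.2%). Genes at least 2-fold higher hold it in 41 of 713 cases (5.75%), those at least 2-fold lower in 52 of 1544 (3.37%). Matches of a longer run can overlap. Windows are shown for genes that rose (Isg15, chr4:156200863-156200908, minus strand, and Ifit1, chr19:34640773-34640825, plus strand) and for Gbp2, which fell (chr3:142620592-142620625, plus strand).
Isg15: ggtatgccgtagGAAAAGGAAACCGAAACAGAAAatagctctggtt
Ifit1: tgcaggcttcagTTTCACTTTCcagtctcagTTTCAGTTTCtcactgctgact
Gbp2: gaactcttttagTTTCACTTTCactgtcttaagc
The element thus stands before members that went in either direction. Gbp2 was at 16.04, 18.7, 16.9 and 18.8 CPM at 1 h and 8.58, 6.98, 7.13 and 7.30 CPM at 16 h, with all 16 h libraries below those of 1 h.

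The matrix programme that defines fibroblasts fell. Of 52 extracellular matrix genes 46 were called lower and 4 higher, 41 at least 2-fold lower, with a median log2 change of -2.36. Col1a1, a chain of the main collagen of connective tissue, was at 7234, 4398, 5953 and 5010.5 CPM at 1 h and 374, 757, 695 and 568 CPM at 16 h and fell 9.44-fold (log2 change -3.24 ± 0.28 SE, edgeR adjusted p = 3.9e-08). Its libraries spread widely within each time, and the groups did not overlap. Col3a1 and Col6a1 fell 9.41-fold and 29.97-fold, and Col1a2 fell 4.31-fold. Thbs1, thrombospondin, was at 8689, 8619.8, 8769.8 and 8613 CPM at 1 h and 109.96, 99.9, 101.9 and 102.2 CPM at 16 h, with the groups far apart. Fn1, fibronectin, fell 3.31-fold, from 6889.7 ± 178 to 2081 ± 34.1 CPM, to about its control mean of 2237 CPM. Lox, which crosslinks collagen, fell 4.64-fold and Sparc, which binds it, 1.47-fold. The protease gene Mmp2 fell 5.01-fold, whereas Mmp19 and Postn rose 2.88-fold and 1.24-fold from low levels.

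Receptors for growth factors and matrix went the same way, with 27 of 37 lower and 4 higher and a median log2 change of -1.28. The PDGF receptor genes Pdgfra and Pdgfrb fell 7.23-fold and 3.92-fold, Egfr fell 5.37-fold, and Fgfr1 fell 1.83-fold. Among integrins, the collagen receptor gene Itga11 was at 100.9, 91.8, 91.0 and 89.5 CPM at 1 h and 2.12, 1.87, 1.67 and 2.004 CPM at 16 h, and Itga3 and Itgb1 fell 8.58-fold and 2.41-fold. Lrp1, a large endocytic receptor, fell 21.6-fold, from 1021 ± 108 to 47.3 ± 7.90 CPM. Tgfbr1, the TGF-beta receptor kinase, rose 2.60-fold, from 17.0 ± 0.263 to 44.1 ± 6.84 CPM, and Jag1, a Notch ligand, rose 1.76-fold. Met, at 80.9 and 90.3 CPM, did not pass the test (edgeR adjusted p = 0.064, and 0.019 with the GC trend removed). Of the 11 fibroblast markers summed above, 6 are matrix or receptor genes. The means of the other 5 were lower at 16 h too: S100a4 from 306 to 18.2, Vim from 1670.5 to 447, Thy1 from 71.4 to 22.9, Prrx1 from 174 to 100.2 and Twist1 from 33.9 to 24.2 CPM.

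Cell division genes fell together. All 39 mitosis and G2/M genes tested were called lower at 16 h and all were at least 2-fold lower, with a median log2 change of -2.01. Ccnb1, the cyclin of mitotic entry, was at 93.6, 99.4, 96.0 and 98.2 CPM at 1 h and 24.8, 21.7, 24.1 and 25.7 CPM at 16 h and fell 4.02-fold (log2 change -2.01 ± 0.064 SE, edgeR adjusted p = 2.4e-14). Its partner kinase gene Cdk1 changed least of those named, 2.13-fold, from 115.1 ± 6.11 to 54.1 ± 4.21 CPM. The proliferation marker Mki67 was at 183, 202, 173 and 189 CPM at 1 h and 16.4, 15.8, 16.6 and 16.4 CPM at 16 h and fell 11.4-fold, and Ccnb2, at 108 and 9.82 CPM, fell 10.98-fold. The kinases Plk1 and Aurka fell 6.27-fold and 3.20-fold, the kinetochore gene Cenpf 8.96-fold, and Top2a, which untangles chromosomes, 5.06-fold.

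Promoters of this list hold TTTGAA, the core of the cell cycle homology region (CHR) bound by the DREAM and MuvB complexes, in 26 of the 34 genes with a promoter in the table (76.5%). The motif is short, and 17.9% of all promoters and 14.2% of the tested genes hold it. It is also in 95 of 713 genes at least 2-fold higher (13.3%) and 273 of 1544 at least 2-fold lower (17.7%). Windows for a strongly changed pair and for Cdk1 lie at chr9:70421704-70421733, minus strand (Ccnb2), chr7:135716460-135716507, minus strand (Mki67) and chr10:69352913-69352995, minus strand (Cdk1), with the motif in capitals. The windows show only bases before the start, while matches after it count toward the shares. A further match of Ccnb2, 4 bases after the start, is therefore not shown.
Ccnb2: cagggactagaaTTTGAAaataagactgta
Mki67: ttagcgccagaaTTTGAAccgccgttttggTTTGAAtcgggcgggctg
Cdk1: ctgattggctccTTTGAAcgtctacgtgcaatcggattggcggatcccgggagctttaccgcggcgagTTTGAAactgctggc
Genes of DNA replication and S phase were lower in 33 of 46 cases and higher in 9, with a smaller median of -0.61. Tk1, thymidine kinase, fell 7.64-fold, from 37.0 ± 2.38 to 4.84 ± 0.867 CPM, and Uhrf1, which copies DNA methylation, fell 4.21-fold. Pcna, the sliding clamp, fell 1.30-fold, while Mcm2, a subunit of the replicative helicase, rose 1.19-fold and Ccne2, an S-phase cyclin, rose 1.82-fold. Of 21 D cyclins, inhibitors of cyclin-dependent kinases and Myc family genes 6 were higher and 14 lower. Ccnd1 was at 64.7, 61.4, 62.8 and 66.4 CPM at 1 h and 12.6, 14.1, 13.7 and 13.1 CPM at 16 h and fell 4.76-fold, while Ccnd2 was at 278, 302, 285 and 284 CPM at 1 h and 531, 462, 471 and 498 CPM at 16 h and rose 1.71-fold, these 2 D cyclins going in opposite directions. Myc and its relative Mycl also went apart, Mycl rising from 1.06 ± 0.265 to 11.2 ± 0.455 CPM (SD, n = 4). The inhibitor gene Cdkn1b rose 1.27-fold and Cdkn2c fell 2.34-fold.

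Neither p53 targets nor cell death regulators moved in a common direction. Of 20 p53 targets 9 were higher and 9 lower (median 0.0093). Cdkn1a, the CDK inhibitor p21, was low at both times, from 2.42 ± 0.202 to 1.16 ± 0.0933 CPM, Mdm2 rose 1.12-fold, the receptor gene Eda2r rose 3.06-fold, and the kinase gene Plk2 fell 10.5-fold. In the BCL2 family and its neighbours 13 of 30 were higher and 12 lower (median 0.084). Among genes that protect mitochondria, Bcl2l1, which encodes BCL-XL, was at 23.9, 20.0, 22.9 and 20.2 CPM at 1 h and 6.43, 6.86, 6.93 and 6.21 CPM at 16 h and fell 3.29-fold, Mcl1 fell 1.59-fold and Bcl2 1.20-fold, while Bcl2l2 (BCL-W), named after its value was seen, rose by a log2 change of 0.21. Among genes that promote death, Hrk was at 0.167, 0.0577, 0 and 0.103 CPM at 1 h and 5.09, 3.93, 3.18 and 5.15 CPM at 16 h, Bax and Pmaip1 rose 1.35-fold and 1.37-fold, and Bmf fell 13.2-fold, from 13.8 ± 1.53 to 1.04 ± 0.0515 CPM. Tnfrsf10b, which encodes the death receptor DR5, rose 1.20-fold. Casp4, an inflammatory caspase, rose 3.56-fold, and Casp12, which resides at the ER, fell 1.54-fold. Txnip, an inhibitor of thioredoxin tied to inflammasome activation, was at 83.4, 87.2, 92.8 and 92.5 CPM at 1 h and 258, 229.9, 229 and 249 CPM at 16 h and rose 2.72-fold.

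Sterol metabolism fell as a block. Of 27 genes of cholesterol synthesis and the SREBP system, 23 were called lower in edgeR and 4 not called, with a median log2 change of -1.01. Called higher were 0, also at an unadjusted p under 0.05 and in DESeq2, and 2 with the GC trend removed. Srebf2 and Srebf1, which encode the SREBP factors, fell 2.69-fold and 2.22-fold. Insig1, which holds SREBP in the ER, fell 1.93-fold. Hmgcs1, an early enzyme of cholesterol synthesis, was at 463, 500.3, 454 and 481 CPM at 1 h and 154, 132, 135.8 and 142.1 CPM at 16 h and fell 3.37-fold (log2 change -1.75 ± 0.062 SE, edgeR adjusted p = 8.7e-14). It was the member, 1 of 19 with a promoter in the table, whose window holds the sterol element TCACNCCAC (N any base, 1.24% of all promoters and 1.46% of the tested genes), shown at chr13:119690202-119690234, plus strand.
Hmgcs1: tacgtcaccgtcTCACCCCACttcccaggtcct
Of 19 fatty acid genes 4 were higher and 13 lower (median -0.31). Fasn, the synthase, fell 3.60-fold, from 759 ± 89.1 to 211 ± 37.8 CPM, Elovl6 fell 2.66-fold and Scd1 fell 1.38-fold, while Mid1ip1, an activator of acetyl-CoA carboxylase, rose 2.37-fold.

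Glycolysis and hypoxia genes were lower in 19 of 29 cases and higher in 2, by a modest median log2 change of -0.50. Pkm, pyruvate kinase, fell 2.53-fold, from 1029.8 ± 64.2 to 407 ± 35.9 CPM, and Gapdh fell 1.70-fold. Ldha, at 589 and 571 CPM, did not pass the test (edgeR adjusted p = 0.31). Car9, a hypoxia marker, fell 9.85-fold, while Pdk1, which restrains entry of pyruvate into mitochondria, rose 1.41-fold. Of 74 nuclear genes of the respiratory chain 14 were higher, 23 lower and 37 not called (median -0.061; 20 higher and 23 lower with the GC trend removed), fewer in each direction than the 37.7% of all genes. Mitochondrial chaperones and proteases were higher in 14 of 19 cases and lower in 4 (median 0.43), with log2 changes from -0.60 to 1.24. Lonp1, the matrix protease, and Dnaja3, a matrix J protein, rose 2.27-fold and 2.36-fold, and Hspa9 and Hspd1, the matrix Hsp70 and Hsp60, rose 1.33-fold and 1.42-fold.

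Protein quality control in the cytosol was mixed. Of 30 cytosolic heat shock genes 11 were higher and 11 lower (15 lower with the GC trend removed), with a median log2 change of -0.033. Hspa8, the constitutive Hsp70, fell 1.81-fold and its J partner Dnajb1 fell 2.48-fold, while Hsf2 rose 1.36-fold and the chaperonin subunit gene Cct4 rose 1.34-fold. Proteasome subunits were higher in 8 of 31 cases and lower in 9 (median -0.075; 11 and 12 with the GC trend removed). Of 34 autophagy and ER-phagy genes 22 rose and 4 fell (median 0.32; 26 higher with the GC trend removed). Atg13, a subunit of the initiating kinase complex, was at 36.2, 34.5, 34.2 and 37.6 CPM at 1 h and 147, 145.6, 154 and 147 CPM at 16 h and rose 4.17-fold. Map1lc3b and Gabarapl1, which coat the forming membrane, rose 2.01-fold and 1.94-fold, whereas the ER-phagy receptor genes Fam134b and Ccpg1 fell 1.56-fold and 1.32-fold and Fam134c rose 1.27-fold.

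Antioxidant genes under NRF2 were lower in 20 of 31 cases and higher in 8 (median -0.28; 17 lower with the GC trend removed). Nqo1, a quinone reductase, was at 38.9, 44.5, 39.4 and 41.4 CPM at 1 h and 10.2, 8.23, 10.5 and 8.96 CPM at 16 h and fell 4.34-fold, and Srxn1 and Nfe2l2, which encodes NRF2, fell 1.75-fold and 1.33-fold. Hmox1, heme oxygenase, rose 2.49-fold, from 348 ± 22.4 to 866 ± 52.2 CPM, and Prdx6, a peroxidase, rose 2.02-fold. Ribosomal protein genes rose slightly: 43 of 80 were higher and 3 lower, with a median log2 change of 0.28 (54 higher with the GC trend removed). Rps20 and Rps24 rose 1.52-fold and 1.51-fold, and Rpl37a fell 1.95-fold. These genes have processed pseudogenes across the genome, and the handling of reads with several matches, not given in the sources used here, leaves their values less certain. Of 38 translation initiation and elongation factors 25 were higher and 3 lower (median 0.26; 29 higher with the GC trend removed). Eif1, which selects start codons, rose 1.997-fold, Tpt1 rose 1.69-fold, and the cap-complex scaffold gene Eif4g1 fell 1.37-fold. Eef1a1, at 10456 and 11237 CPM, did not pass the test (edgeR adjusted p = 0.15).

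The highest changes belonged to genes that were near silent at 1 h. Among called genes with a mean of at least 5 CPM over the 8 libraries and separated groups, the 10 highest were Ostn, Saa3, Sspo, Car6, B4galnt2, Ifi44, Taf7l, Fibin, Usp18 and Nat8. A gene near 0 at 1 h can pass this rule through its 16 h level alone, and a ranking by fold favours such genes. The same holds in reverse for the lowest changes. Ostn, which encodes the secreted peptide osteocrin, held 6 counts over the 4 libraries of 1 h and 386 to 473 counts in each library of 16 h. Saa3, an acute-phase protein gene, held 5 counts at 1 h in all and 350 to 389 per library at 16 h. Car6, a secreted carbonic anhydrase, was at 1.84, 2.02, 2.23 and 1.97 CPM at 1 h and 147, 132.5, 128.4 and 135.8 CPM at 16 h. Sspo, a large glycoprotein known from the brain, was at 0.902, 0.692, 0.989 and 0.414 CPM at 1 h and 50.04, 93.4, 95.9 and 79.0 CPM at 16 h, and Ifi44, an interferon response gene, at 0.501, 1.07, 0.495 and 0.776 CPM at 1 h and 45.1, 41.3, 36.8 and 43.0 CPM at 16 h. For B4galnt2 and Nat8, enzyme genes, and for Taf7l and Fibin the 16 h means were 15.3, 11.1, 10.9 and 10.3 CPM against 0.246, 0.328, 0.227 and 0.276 CPM at 1 h. None of the 10 genes had a control mean above 1.96 CPM, so these mRNAs were low in the unstressed cells too.

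At the other end, 9 of the 10 lowest were Egr3, Egr2, Fos, Arc, Edn1, Ctgf, Esm1, Inmt and Nr4a1, and 6 of them are on the immediate early list. Esm1, a secreted proteoglycan gene, held 1284 counts over the libraries of 1 h and 10 over those of 16 h, and Inmt, a methyltransferase gene, 1485 and 15. Their control means were 16.9 CPM for Esm1 and 11.1 CPM for Inmt, against 12.3 and 14.3 CPM at 1 h.

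Where the 2 times lay against control differed between the lists. These contrasts share libraries with each other and with the comparison above, so their values are set side by side only. Against control, 4 ER chaperones were higher and 23 lower at 1 h (28.1% and 28.1% of all genes), and 23 were higher and 9 lower at 16 h (37.9% and 39.4% of all genes), with medians of -0.42 and 0.66. Translocation genes, 30 of 46 lower at 1 h and 37 higher at 16 h, had medians of -0.36 and 0.57. ATF4 and CHOP targets were mostly above control at both times, with 23 of 37 higher at 1 h and 29 at 16 h (medians 0.43 and 1.11), as were tRNA synthetases, with 20 of 20 higher at 1 h and 18 at 16 h.

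Immediate early genes were mostly above control at 1 h (32 of 39 higher, median 0.79) and under it at 16 h (31 lower, median -2.37). The medians of several other lists also went from above control to below it. Among these were matrix genes (30 of 52 higher at 1 h, 43 lower at 16 h, medians 0.45 and -1.90) and mitosis genes (32 of 39 higher at 1 h, 39 lower at 16 h, medians 0.47 and -1.33). Further lists that crossed were feedback on MAP kinases (0.23 to -0.61), DNA replication (0.22 to -0.20), glycolysis and hypoxia (0.25 to -0.25), fatty acid synthesis (0.084 to -0.35) and D cyclins (0.034 to -0.40). Medians of NRF2 and BCL2 family genes crossed too, by less (0.054 to -0.076 and 0.053 to -0.082). The median of the YAP/TAZ and SRF list went from 0.32 to -1.90 and that of NF-kB genes from 0.53 to -1.63. Of 27 sterol genes 7 were higher and 11 lower than control at 1 h, and 24 were lower at 16 h (medians 0.033 and -1.27). Cytosolic heat shock genes were mostly above control at both times (25 of 30 higher at 1 h, 20 at 16 h). Among mitosis genes Top2a had means of 129, 313 and 61.7 CPM in control, at 1 h and at 16 h, and Ccnb1, which did not share the higher level at 1 h, had 106.6, 96.8 and 24.1 CPM.

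**Figure D4:**
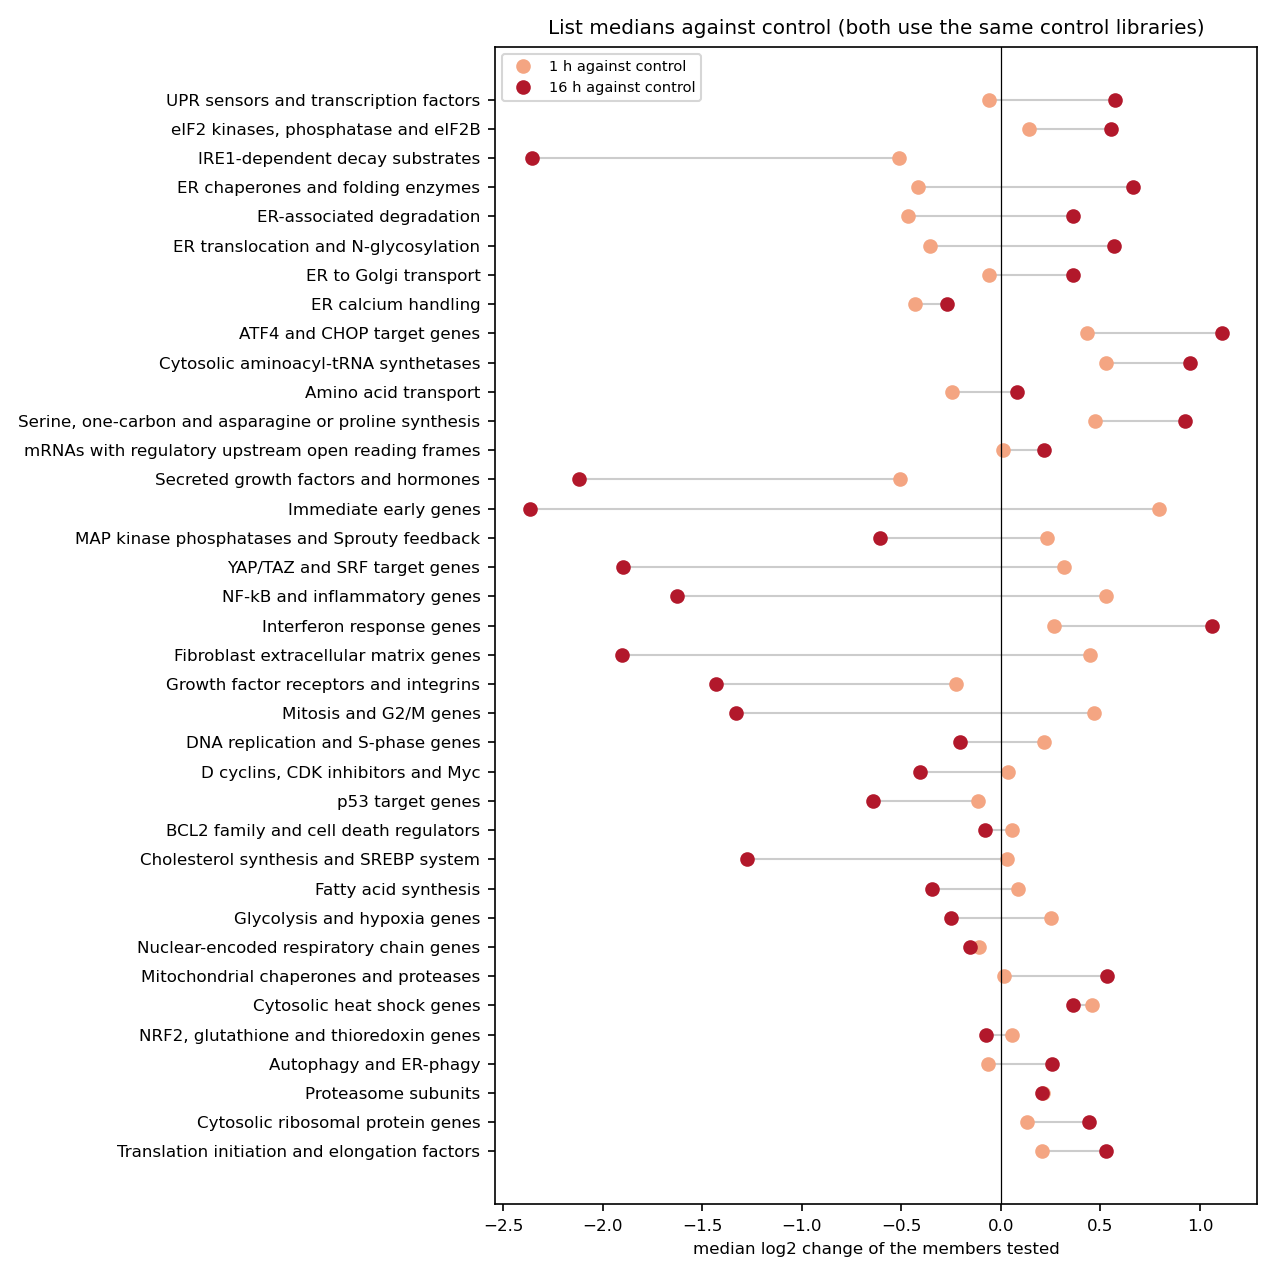
Median log2 change of the members tested of each list at 1 h (light) and at 16 h (red) against the same 4 control libraries, joined by a line. The immediate early list goes from 0.79 to -2.37 and the matrix list from 0.45 to -1.90, while ER chaperones go from -0.42 to 0.66.

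Polysome RNA of the same 2 times, from the fractions with more than 4 ribosomes, changed in much the same way. Of 12065 genes tested there, 4636 were called higher at 16 h (38.4%) and 4831 lower (40%). Over the 11955 genes tested in both kinds of RNA, the log2 changes correlated with Pearson's r = 0.949 and Spearman's rho = 0.908; this is across genes, which are not independent replicates, and the polysome RNA was drawn from the cytosolic extracts. Of 7923 genes called in both, 7658 had the same sign and 265 the opposite sign. ER chaperones had a median polysome log2 change of 1.43 beside 1.28 in the cytosol, and 29 of 34 were higher. Immediate early genes had -3.71 beside -3.38, matrix genes -2.39 beside -2.36, and mitosis genes, all 39 of 39 lower, -1.94 beside -2.01. The difference between the 2 readouts was not tested. Ribosomal protein genes were higher in 43 of 80 cases in the cytosol and in 30 of 80 on polysomes, where 20 were lower, and proteasome subunits were higher in 8 of 31 and 20 of 31 cases.

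**Figure D5:**
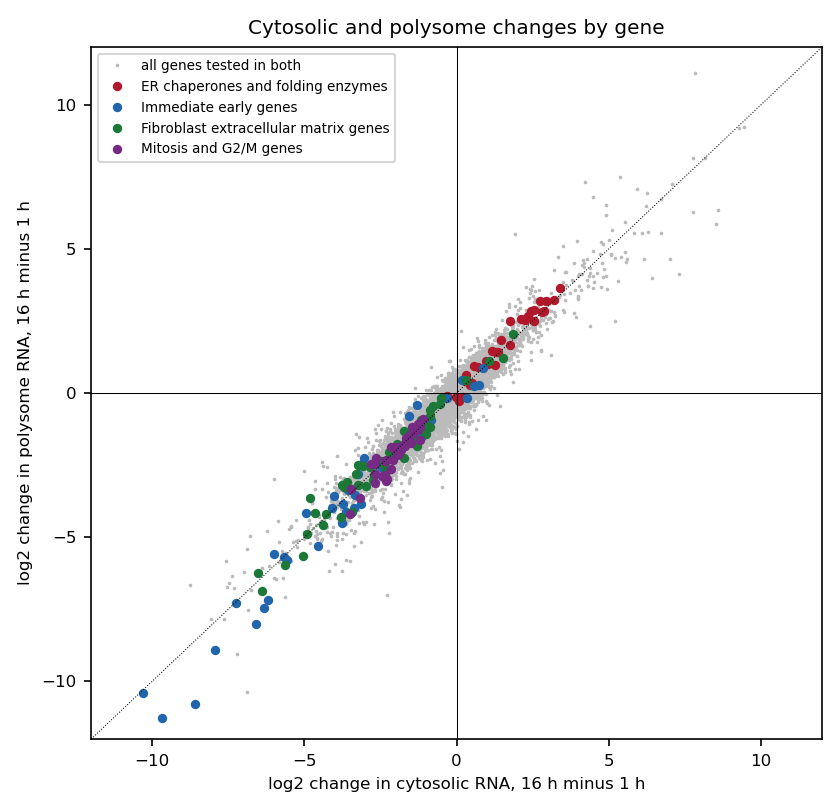
Log2 change from 1 h to 16 h of each gene in cytosolic RNA (x axis) and polysome RNA (y axis), with 4 lists coloured and the line of equal change dotted. Points follow the line (r = 0.949 over 11955 genes), with ER chaperones at the upper right and immediate early, matrix and mitosis genes at the lower left.

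Among the named genes 3 had called changes of opposite sign, each small in the cytosol. Bcl2l11, which encodes the death promoter BIM, had a cytosolic log2 change of 0.20 ± 0.072 SE and a polysome change of -0.26 ± 0.062, and its cytosolic call was lost without replicate 1 of 16 h (log2 change 0.13, edgeR adjusted p = 0.074). Txnrd1, thioredoxin reductase, had -0.28 ± 0.033 and 0.13 ± 0.037, and Vldlr had 0.31 ± 0.062 and -0.14 ± 0.057. Among named genes with large changes no called signs were opposite, though sizes differed for some. Hspa5 had 2.45 ± 0.061 in the cytosol and 2.85 ± 0.061 on polysomes, and Ddit3 2.27 ± 0.10 and 2.09 ± 0.070. Ppp1r15a had 2.77 ± 0.074 and 1.47 ± 0.055, and Fos -8.59 ± 0.18 and -10.77 ± 0.12. Atf4, whose mRNA is translated when eIF2 is phosphorylated, had 0.37 ± 0.032 and 0.25 ± 0.038.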

How the data were processed

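Deposited counts of reads per gene were used as the authors gave them, 1 column for each of the 32 libraries and none of other samples. Per the submitters' processing notes, HISAT, the mouse build mm10 and DESeq2 1.9.23 were used, and per the labels libraries were made with TruSeq. The counting tool, annotation, strand setting and handling of multiply mapped reads were not given in the sources used here. Libraries were grouped by their labelled RNA origin and treatment.

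Counts of the 16 cytosolic libraries were analysed in R 4.3.3 with edgeR 4.0.16 (limma 3.58.1). Genes were filtered with filterByExpr (minimum count 10, minimum total 15), which left 12366 of 20234, and scaled by TMM. A robust quasi-likelihood fit by condition (12 residual degrees of freedom) gave the contrast of 16 h minus 1 h and both times against control. The polysome libraries were fitted alike. Genes were called at a Benjamini-Hochberg adjusted p under 0.05 over all genes tested. The code was tested on simulated data in which few genes changed, with signs drawn evenly. Scaling under a change as broad as the present one was not tested there. No 2 libraries of a time agreed within sampling noise (lowest chi-square per degree of freedom 3.77). Levels are TMM-scaled CPM, and a standard error is the log2 change divided by the square root of its F.

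The gene lists and the 14 genes of a panel were chosen with earlier results of these data known. Genes were named by rule: the panel, starred members of each list, up to 3 called members per list and direction with the largest changes (mean of at least 2 CPM), the 10 highest and 10 lowest changes with separated groups (at least 5 CPM, no clone-type symbols), and those of opposite sign on polysomes. Lists are described by counts and medians, with no test of the list. Alternatives covered scaling (DESeq2 1.42.0 size factors, library totals), the filter, DESeq2's Wald test, only the 8 libraries, a replicate block, leaving out each library, and 2 corrections for transcript GC added after seeing the data (12252 genes with a value). RefSeq promoters (GRCm38.p6, 250 bases before to 50 after a start) matched 9830 of the 12366 genes by symbol. Some items the rule names are not reported here.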

Additional observations from a re-analysis of the deposited data

Results flagged for a closer look

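For each gene named, the 4 libraries of a time were checked for 1 value far from the other 3 (a gap to the nearest, as a share of the group's range, above Dixon's 95% critical value). This held in 24 of 506 groups, and chance alone gives about 1 in 20 groups. The values were spread over all 8 libraries, from 1 to 4 in each.

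Among ER stress genes, Ddit3 in replicate 1 of 16 h was at 451 CPM, below the other libraries at 545 to 555 CPM and still far above those of 1 h. At 1 h, 1 library was above the others for Aldh1l2 (replicate 2: 338 CPM, others 316 to 319.8 CPM), Alg2 (replicate 4: 69.3 CPM, others 61.0 to 62.3 CPM) and Dad1 (replicate 3: 71.0 CPM, others 67.0 to 67.7 CPM). Further cases were Lonp1 (replicate 1: 128.3 CPM, others 121.6 to 121.97 CPM), Snhg11 (replicate 2: 5.77 CPM, others 4.85 to 4.92 CPM) and Spry3 (replicate 2: 13.3 CPM, others 11.5 to 11.8 CPM). The same held for Taf7l (replicate 1: 0.301 CPM, others 0.198 to 0.207 CPM) and Tusc3 (replicate 2: 40.2 CPM, others 35.7 to 36.1 CPM). At 1 h, 1 library was below the others for Aars (replicate 4: 894 CPM, others 973 to 985 CPM), Eif2ak2 (replicate 3: 36.7 CPM, others 40.4 to 41.2 CPM) and Pmaip1 (replicate 3: 8.46 CPM, others 9.52 to 9.73 CPM). Further cases were Stim1 (replicate 4: 30.4 CPM, others 36.1 to 36.8 CPM) and Wwtr1 (replicate 3: 142.9 CPM, others 154 to 156 CPM).

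At 16 h, 1 library was above the others for Atg13 (replicate 3: 154 CPM, others 145.6 to 147 CPM), Aurka (replicate 4: 18.2 CPM, others 16.6 to 16.8 CPM) and Eif2ak4 (replicate 4: 31.4 CPM, others 29.5 to 29.8 CPM). Further cases were Eif4g1 (replicate 4: 469 CPM, others 460.4 to 461 CPM). At 16 h, 1 library was below the others for Car9 (replicate 3: 6.56 CPM, others 6.82 to 6.84 CPM), Inmt (replicate 3: 0 CPM, others 0.143 to 0.163 CPM) and Irf7 (replicate 1: 2.87 CPM, others 4.61 to 4.92 CPM). Further cases were Tnfaip2 (replicate 1: 22.3 CPM, others 25.2 to 25.8 CPM), Txnrd1 (replicate 4: 322 CPM, others 331 to 332 CPM) and Usp18 (replicate 2: 21.6 CPM, others 27.0 to 27.3 CPM).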

How the results depend on the processing

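The counts of genes called stayed within 1.5 times of those reported under every alternative run. With DESeq2's size factors in edgeR 4887 genes were higher and 4460 lower, with library totals 4759 and 4610, without the filter on low counts 4927 and 4804 of 16642, in DESeq2's Wald test 4883 and 4456, and in a fit of only the 8 libraries 4497 and 4609. The replicate numbers did not pair the libraries (correlations of deviations of -0.458, -0.331, 0.125 and 0.00688 for replicates 1 to 4), and a replicate block gave 4608 and 4610 genes and changed the call of none of the 253 genes named. Leaving out each library in turn gave 4466 to 4638 genes higher and 4480 to 4655 lower, and 901 to 952 and 2051 to 2173 at least 2-fold. None of the calls reported changed sign under these settings. Removal of the GC trend through offsets, an alternative chosen after seeing the data, changed the sign of 1.23% of the calls, gave 1007 and 1878 genes at least 2-fold, and turned the log2 changes of Aars to 0.18 and of Slc7a11 to -0.043, neither of which was called before. The GC slope as a covariate, also added later, gave 5234 and 5274 calls with 0 changed in sign. With it the log2 changes of Trib3, Ddit4, Klf4, Phgdh and Shmt2 were 0.33, 0.22, 0.17, 0.098 and 0.17, smaller than with the offsets. Of the genes given as not called, Trib3, Met, Klf4, Ddit4, Aars, Gdf15, Phgdh, Shmt2, Eef1a1 and Slc7a11 passed in 1 to 7 of the alternatives, and the call of Bcl2l11 was lost in the fit of 8 libraries and without replicate 1 of 16 h. Small list counts moved by more than 1.5 times in places: lower ER chaperones to 1, lower ATF4 and CHOP targets to 2, lower serine and one-carbon genes to 3, lower ribosomal protein genes to 5 or 10, higher NF-kB genes to 5, and with the GC corrections higher immediate early genes to 5, higher feedback genes and glycolysis genes to 4, lower translation factors to 5 and lower proteasome subunits to 16. The cause was not tested. Depth limits mainly genes under 1 CPM, whose folds rest on few counts.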

Other observations

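Gene families grouped by the stem of their symbols, for stems with at least 15 genes tested, gave further groups, some with members also in the lists above. They were picked after their values were seen, so their counts are a description, beside 37.7% of all genes in each direction. Clustered protocadherins (Pcdhb), adhesion molecules best known from neurons, were called lower in edgeR in 19 of 21 cases, with a median log2 change of -1.17. Kinesins (Kif), motors of microtubules that partly serve mitosis, were lower in 22 of 33 cases (median -1.14). Interleukins, their receptors and other genes whose symbols begin with Il were lower in 20 of 33 (median -0.87), and receptors of the TNF family (Tnfrsf) in 9 of 15 (median -1.32). Among genes of cell shape, the guidance genes of the semaphorin family (Sema) were lower in 11 of 18 and the myosins (Myo) in 9 of 15, with medians of -0.75 and -0.65.

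Other stems leaned to higher levels at 16 h, by smaller amounts. Proteins of the mitochondrial ribosome were higher in 26 of 47 cases (Mrpl, median 0.21) and 18 of 28 cases (Mrps, median 0.26). Helicases of the DEAD box family (Ddx) were higher in 22 of 35, Mediator subunits (Med) in 18 of 30 and subunits of RNA polymerases (Polr) in 13 of 28, with medians of 0.21, 0.28 and 0.27. Peroxisome biogenesis genes (Pex) were higher in 10 of 16 cases (median 0.45), and carriers of the major facilitator family (Mfsd) in 11 of 18 (median 0.54).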
